A study of Mus musculus with 6 samples.

Results

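The genes of MHC class I presentation and of the immunoproteasome were examined in primary mouse hepatocytes that received the nuclear form of CREBH. The set holds 10 listed genes, chosen by name: H2-K1, H2-D1, B2m, Tap1, Tap2, Tapbp, Psmb8, Psmb9, Psmb10 and Nlrc5. Of these, 9 were measured by a feature of the array that carries their symbol alone, out of 18820 genes in all. H2-D1 had no such feature. Nlrc5 alone had several features, of which the brightest on average was taken. After transduction with nuclear CREBH, mRNA abundance of the activator Nlrc5 and of the immunoproteasome subunits Psmb10 and Psmb8 fell 7.11-fold, 7.0-fold and 3.55-fold, and that of Tapbp and Tap2 fell less. The Nlrc5 feature taken showed the largest fall of its 19, whose median log2 fold change was -1.71. Tap1 rose, and H2-K1, B2m and Psmb9 did not pass the test.

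Hepatocytes were isolated by perfusion of livers of wildtype male C57BL/6J mice aged 8 to 10 weeks. They were transduced in 60 mm dishes with adenovirus carrying green fluorescent protein (Ad-GFP, the control) or the N-terminal fragment of CREBH, a liver transcription factor that acts in the nucleus once it is cut free of its membrane anchor (Ad-nuclear CREBH). Both groups thus received an adenovirus, at a multiplicity of infection of 100, and no dish without virus was compared. RNA was taken after 24 h from 3 dishes per group and hybridized to Affymetrix Mouse Gene 1.1 ST arrays, 1 array per dish, and precision is limited by this number of arrays. Nothing in the labels tells if separate animals supplied the dishes, so p-values measure only the spread between dishes, and a virus sets the CREBH level, which need not be that of liver. The sample titles call the CREBH virus Ad-CREBH3.

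MHC class I molecules carry peptides from inside the cell to its surface, where CD8 T cells read them. Proteasomes cut proteins into peptides, the TAP transporter moves the peptides into the endoplasmic reticulum, and a loading complex around tapasin places them on a heavy chain paired with beta-2 microglobulin. Under interferon, the catalytic subunits of the standard proteasome are replaced by those of the immunoproteasome, and NLRC5 acts on the promoters of many of these genes. Hepatocytes express class I at low levels at rest and raise it under interferon gamma.

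Expression of Creb3l3, which encodes CREBH, was 8.02 to 8.49 with Ad-GFP and 9.97 to 10.59 with Ad-nuclear CREBH. All values here are RMA values, background-corrected and normalized between arrays, on a log2 scale, and they cannot separate the viral transcript from that of the mouse gene. Albumin was at 13.25 to 13.33 in Ad-GFP and 13.23 to 13.32 in Ad-nuclear CREBH dishes. The 10 measured hepatocyte markers all had means above the median of all genes, though 2 of them rose (19.2% of all genes) and 3 fell (18.2%). Array medians were 5.119, 5.268 and 5.302 with Ad-GFP and 5.050, 5.116 and 5.098 with Ad-nuclear CREBH, thus lower in every Ad-nuclear CREBH dish. Small differences between groups depend on how this offset is treated. Replicate 1 was the lowest Ad-GFP dish for 6 of the 9 measured genes and the highest for the other 3. Fold changes are Ad-nuclear CREBH minus Ad-GFP from limma with an intensity trend, with p-values adjusted by Benjamini-Hochberg over all 18820 genes and a call at an adjusted p under 0.05. In bulk RNA, fewer cells of a type and less RNA per cell cannot be told apart.

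The promoters of 4 of the genes are shown because they hold the elements known to drive class I transcription or, for Psmb10, because its mRNA abundance fell most among the genes with such a window. They are RefSeq sequences on GRCm38.p6, from 250 bases before to 50 after the start of the transcript. Where a gene had several listed starts, only the window of the most upstream one was searched for that gene. Capitals mark matches, on either strand, to 5 motifs: the interferon-stimulated response element in the forms TTCNNTTTC and TTTCNNTTC, the CCAAT box (CCAAT), the core of the cAMP response element (TGACG), at which CREB family factors bind, and a kappaB site (GGGANTCCC).
H2-K1, chr17:34000298-34000597, minus strand: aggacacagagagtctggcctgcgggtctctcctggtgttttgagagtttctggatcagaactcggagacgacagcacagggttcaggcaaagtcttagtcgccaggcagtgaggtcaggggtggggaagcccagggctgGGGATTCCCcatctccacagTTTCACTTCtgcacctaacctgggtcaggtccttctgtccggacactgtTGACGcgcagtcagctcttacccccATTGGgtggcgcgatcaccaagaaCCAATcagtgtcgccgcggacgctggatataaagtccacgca
B2m, chr2:122147437-122147736, plus strand: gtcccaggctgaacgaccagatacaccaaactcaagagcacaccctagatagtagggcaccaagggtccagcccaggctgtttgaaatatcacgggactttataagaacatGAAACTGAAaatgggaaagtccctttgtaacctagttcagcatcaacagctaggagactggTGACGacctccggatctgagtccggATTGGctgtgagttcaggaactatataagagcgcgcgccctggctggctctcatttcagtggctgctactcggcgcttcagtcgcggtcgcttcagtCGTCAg
Tap1, chr17:34187306-34187605, plus strand: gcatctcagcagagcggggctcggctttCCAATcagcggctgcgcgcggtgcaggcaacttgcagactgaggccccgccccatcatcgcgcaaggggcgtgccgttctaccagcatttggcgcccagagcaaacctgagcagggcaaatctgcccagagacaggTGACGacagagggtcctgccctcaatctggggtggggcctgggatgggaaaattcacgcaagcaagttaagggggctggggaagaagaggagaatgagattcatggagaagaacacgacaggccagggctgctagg
Psmb10, chr8:105938343-105938642, minus strand: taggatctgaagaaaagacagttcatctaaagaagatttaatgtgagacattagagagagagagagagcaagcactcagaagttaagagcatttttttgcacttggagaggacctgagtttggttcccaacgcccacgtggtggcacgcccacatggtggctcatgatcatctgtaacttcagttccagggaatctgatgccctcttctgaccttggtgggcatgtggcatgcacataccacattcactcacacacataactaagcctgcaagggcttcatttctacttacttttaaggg

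Windows existed for 8 of the 10 genes, those of H2-K1, H2-D1, B2m, Tap1, Tapbp, Psmb8, Psmb9 and Psmb10. The form TTCNNTTTC was found in 1 of them, that of B2m, and in 8.56% of all 32851 windows of this length. The form TTTCNNTTC was found in 2, those of H2-K1 and H2-D1, against 7.52% of all windows. The kappaB site stood in the same 2 windows and in 0.767% of all windows. The CCAAT box was found in 6 windows (37.4% of all) and TGACG in 5 (20.8% of all). TTTCNNTTC and the kappaB site were added after the sequences had been seen, and overlapping windows share their matches. In H2-K1, the kappaB site, TTTCNNTTC and TGACG stood 110, 90 and 41 bases before the start, and H2-D1 held the same 3 in the same order at 170, 150 and 101 bases. The start used for H2-K1 lies within the annotated gene, which reaches to position 34000619. The windows of Psmb8 and Psmb10 held none of these letter strings, and a match is a description of the letters and not of binding.

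Tap1 and Psmb9 stand head to head on chromosome 17 of GRCm38.p6, with their starts 226 bases apart on opposite strands, so that 275 bases of their windows are the same sequence. The CCAAT box and the TGACG capitalised under Tap1 are therefore also those of Psmb9. Psmb9 (34182030 to 34187330), Tap1 (34187556 to 34197225), Psmb8 (34198195 to 34201454) and Tap2 (34204479 to 34216321) follow each other there within the MHC. In that order, the first was not called, the second rose and the last 2 fell.

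Of the 9 measured genes, 5 fell, against 18.2% of all genes tested, and 1 rose, against 19.2%, while 3 did not pass. The groups of dishes did not overlap for 6 genes that were lower (23.1% of all genes) and 2 that were higher (26.2%). By the study's criteria, an unadjusted p under 0.001, a fold change above 2 or below 0.5, and expression over 300, read here as a group mean (unlogged) above 300 for either virus because the methods leave the samples unstated, 3 genes passed, all lower, against 8.01% of all genes in either direction, and none did where both group means had to exceed 300. The median log2 fold change of the 9 genes was -0.71, against 0.039 over all genes. Each of the 9 had a mean over the 6 arrays above the median of all genes, 5.24. By that mean, H2-K1 and B2m were among the brightest genes in these dishes, at ranks of 98.8% and 99.9% from the dimmest up.

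**Figure D1:**
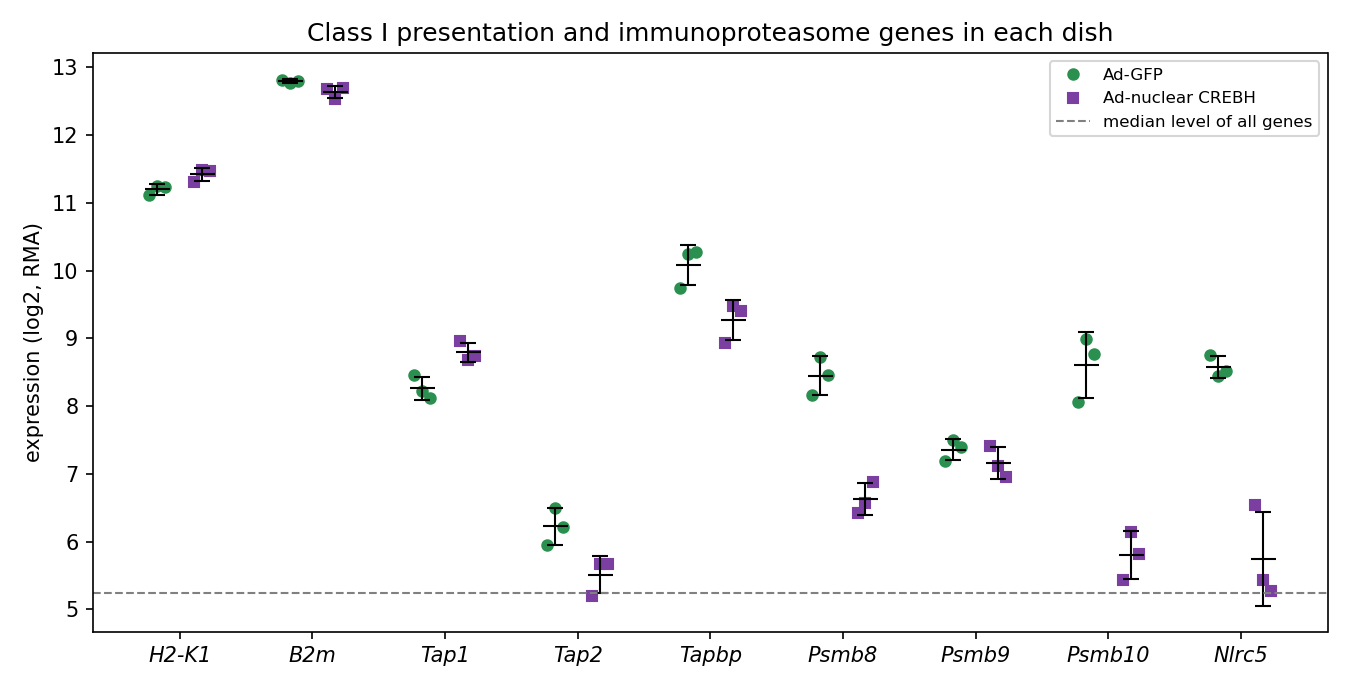
Expression (log2, RMA) of the 9 measured genes in each of 3 Ad-GFP dishes (circles) and 3 Ad-nuclear CREBH dishes (squares), with the mean and SD in black and the median level of all genes as a dashed line at 5.24. Psmb8, Psmb10 and Nlrc5 show the widest gaps between groups, and the dishes of Psmb9 overlap.

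Nlrc5, the transactivator of class I genes, was at 8.76, 8.44 and 8.52 with Ad-GFP and at 6.53, 5.43 and 5.26 with Ad-nuclear CREBH. All Ad-nuclear CREBH dishes were far below all Ad-GFP dishes, and replicate 1 was the highest in both groups. The log2 fold change was -2.83 (SE 0.31, n = 3 per group, limma adjusted p = 2.4e-04), or 7.11-fold lower. Its Ad-nuclear CREBH mean of 5.74 was near the median level of all genes, 5.24, where RMA can understate folds. The array reads Nlrc5 through 19 features, all of which were lower in every Ad-nuclear CREBH dish than in any Ad-GFP dish. In a fit over 21218 features, 18 of them fell, and the remaining one had an adjusted p of 0.109. Their log2 fold changes ran from -2.83 to -0.41 with a median of -1.71, so the size of the fall depended on the feature. Averaging the features would leave Nlrc5 short of the study's criteria, although it was called in every alternative.

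**Figure D2:**
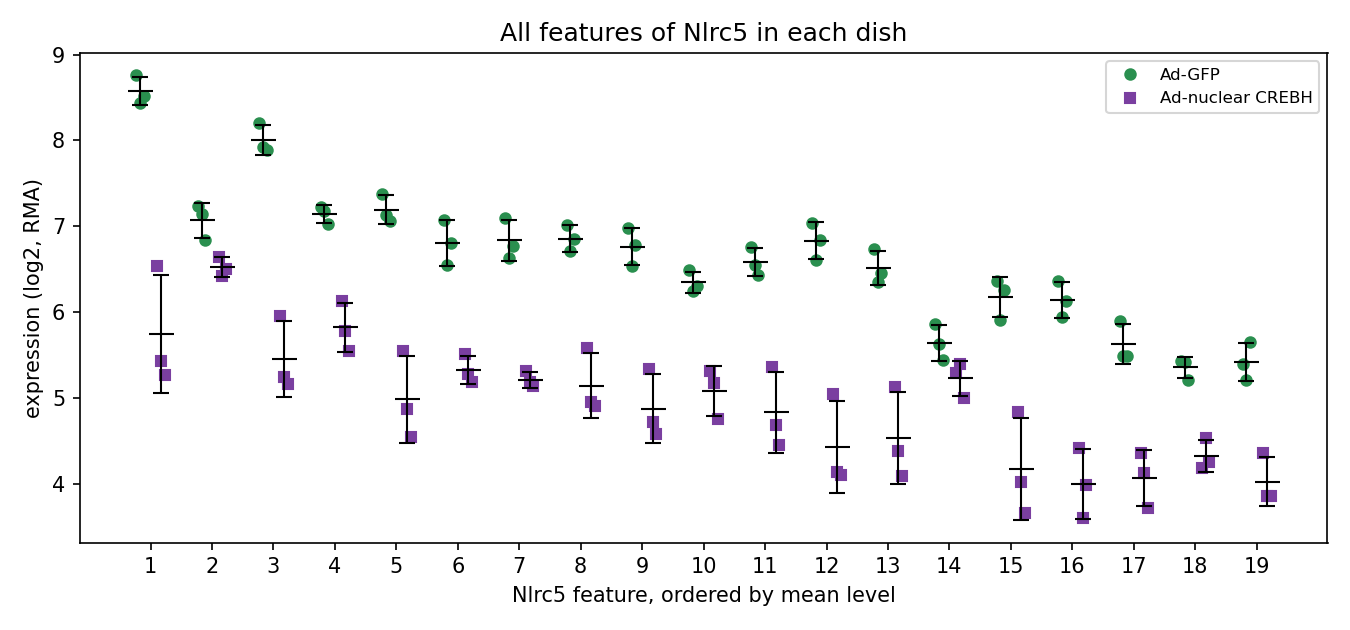
Expression (log2, RMA) of the 19 features of Nlrc5, ordered by mean level, in each Ad-GFP dish (circles) and Ad-nuclear CREBH dish (squares), with the mean and SD in black. Every feature is lower in the Ad-nuclear CREBH dishes, by 0.41 to 2.83 on the log2 scale.

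Of the 3 catalytic subunits of the immunoproteasome, 2 fell and the third was not called, and the difference between them was not tested. Psmb10, which encodes beta2i (MECL-1), was at 8.06, 8.99 and 8.77 with Ad-GFP and 5.44, 6.14 and 5.82 with Ad-nuclear CREBH. The groups were separated by more than the whole spread of either, with replicate 1 the lowest dish of each. Its log2 fold change was -2.81 (SE 0.27, adjusted p = 1.3e-04), 7.0-fold lower, with an Ad-nuclear CREBH mean of 5.80, likewise near the median level.

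Psmb8, which encodes beta5i (LMP7), was at 8.16, 8.73 and 8.46 with Ad-GFP and 6.42, 6.57 and 6.88 with Ad-nuclear CREBH. Again the dishes of both groups stood well apart. Its log2 fold change was -1.83 (SE 0.19, adjusted p = 1.8e-04), 3.55-fold lower. For Psmb9, which encodes beta1i (LMP2), the dishes were at 7.19, 7.49 and 7.40 with Ad-GFP and at 7.41, 7.11 and 6.96 with Ad-nuclear CREBH. Here the groups overlapped, since Ad-nuclear CREBH replicate 1 lay above 2 of the Ad-GFP dishes. The difference of -0.20 (SE 0.17, 95% confidence interval -0.58 to 0.19, adjusted p = 0.408) did not pass, and the interval leaves room for a fall of the size of 0.58 but not for one like that of Psmb8 or Psmb10. Psmb9 was called lower with array weights and without both replicates numbered 1.

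Each of these subunits takes the place of a constitutive one, and the log2 difference of such a pair on the same array was compared between groups in 3 two-sided exact permutation tests, whose smallest possible p is 0.1. Psmb8 minus Psmb5 changed from -0.50 to -1.72, a change of -1.21 (exact p = 0.1, adjusted over 3 pairs 0.15). Psmb10 minus Psmb7 changed from -2.23 to -5.17, a change of -2.93 (exact p = 0.1, adjusted 0.15). Both pairs were lower in every Ad-nuclear CREBH dish than in any Ad-GFP dish. Psmb9 minus Psmb6 changed from -3.50 to -3.78, a change of -0.28 (exact p = 0.3, adjusted 0.3), with 1 Ad-nuclear CREBH dish within the Ad-GFP range. Only the changes can be read here, since the brightness of different features does not compare their transcripts. Among the constitutive catalytic subunits, Psmb5 itself fell by 0.61 on the log2 scale (adjusted p = 0.0039), while Psmb6 differed by 0.08 (adjusted p = 0.584) and Psmb7 by 0.12 (adjusted p = 0.318).

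**Figure D3:**
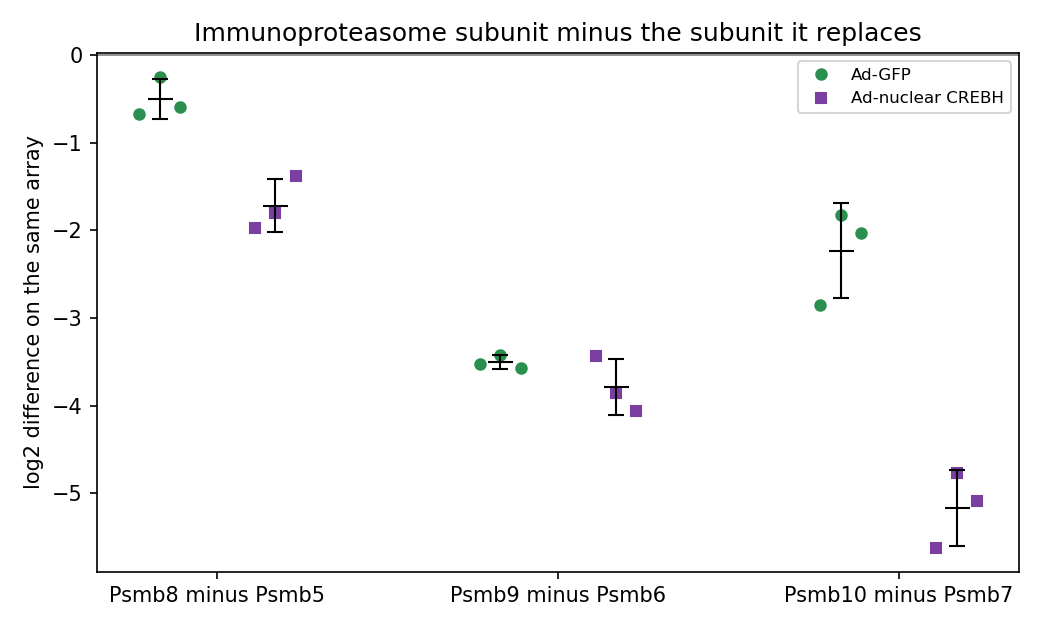
Log2 difference between an immunoproteasome subunit and the constitutive subunit it replaces on the same array, for 3 Ad-GFP dishes (circles) and 3 Ad-nuclear CREBH dishes (squares), with the mean and SD in black. The gap between groups is 2.93 for Psmb10 minus Psmb7, 1.21 for Psmb8 minus Psmb5 and 0.28, with overlapping dishes, for Psmb9 minus Psmb6.

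The peptide transporter is a dimer of TAP1 and TAP2, and its 2 genes moved in opposite directions. Tap1 was at 8.45, 8.22 and 8.12 with Ad-GFP and 8.95, 8.68 and 8.75 with Ad-nuclear CREBH. Every Ad-nuclear CREBH dish was above every Ad-GFP dish, and Tap1 rose by 0.53 (SE 0.14, adjusted p = 0.0183), 1.44-fold. Without Ad-GFP replicate 2, Ad-GFP replicate 3 or Ad-nuclear CREBH replicate 3, the adjusted p reached up to 0.0768, and the call was also lost under quantile normalization.

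Tap2 was at 5.95, 6.50 and 6.22 with Ad-GFP and 5.20, 5.67 and 5.67 with Ad-nuclear CREBH, with no overlap. It fell by 0.71 on the log2 scale (SE 0.20, adjusted p = 0.0255), 1.64-fold. Its Ad-nuclear CREBH dishes were near the median level of all genes, where RMA understates folds, and the call was lost without Ad-GFP replicate 2, Ad-GFP replicate 3 or Ad-nuclear CREBH replicate 1, with an adjusted p of up to 0.0948. The difference Tap1 minus Tap2 on the same array was 2.50, 1.73 and 1.90 with Ad-GFP and 3.76, 3.01 and 3.08 with Ad-nuclear CREBH, and Tap1 minus its head-to-head neighbour Psmb9 was 1.27, 0.73 and 0.72 against 1.54, 1.57 and 1.79. Both differences were higher in all Ad-nuclear CREBH dishes. They were chosen after the values had been seen and carry no test.

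Tapbp encodes tapasin, which bridges TAP and the heavy chain and edits the peptides that are loaded. Its dishes were at 9.75, 10.25 and 10.27 with Ad-GFP and 8.93, 9.48 and 9.40 with Ad-nuclear CREBH. The groups did not overlap, with replicate 1 the lowest of each, and Tapbp fell by 0.82 on the log2 scale (SE 0.19, adjusted p = 0.0114), 1.76-fold, a call that held in every alternative with an adjusted p of at most 0.0453. Its relative Tapbpl, which encodes the peptide editor TAPBPR that works apart from the TAP complex, was at 7.03, 7.75 and 7.90 with Ad-GFP and 8.90, 9.62 and 9.60 with Ad-nuclear CREBH. Tapbpl thus rose where Tapbp fell, by 1.82 (SE 0.28, adjusted p = 0.00122), and all its Ad-nuclear CREBH dishes were above the highest Ad-GFP dish.

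H2-K1, a classical heavy chain, was at 11.11, 11.25 and 11.24 with Ad-GFP and 11.31, 11.48 and 11.46 with Ad-nuclear CREBH. The groups did not overlap, but the difference was small, 0.22 (SE 0.08, 95% confidence interval 0.03 to 0.42, adjusted p = 0.0767), and did not pass over all genes. It did pass with array weights, with each array centred on its median, among genes above the median level and without Ad-nuclear CREBH replicate 1 or both replicates numbered 1. B2m, the light chain of every class I molecule, was at 12.82, 12.77 and 12.80 with Ad-GFP and 12.68, 12.54 and 12.70 with Ad-nuclear CREBH. Its dishes were all slightly lower with nuclear CREBH, by 0.16 on the log2 scale (SE 0.06, 95% confidence interval -0.31 to -0.01, adjusted p = 0.0898), again short of the threshold. B2m passed with array weights, the replicate block and cyclic loess and without both replicates numbered 1. Over all alternatives its difference was as small as -0.02, and its adjusted p reached 0.893.

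The class I heavy chains are near-identical copies, so probes for one can read another, and the values of H2-K1 and of the H2-Q and H2-T genes are uncertain to that extent. For H2-D1, the second classical heavy chain of this strain, the array held a feature annotated to H2-D1, H2-K1 and LOC547349 together. It was at 11.40, 11.53 and 11.56 with Ad-GFP and 11.07, 11.28 and 11.18 with Ad-nuclear CREBH, a difference of -0.32 without overlap. That is the opposite side of 0 from the H2-K1 feature, and as it names no single gene it was neither tested nor counted.

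Of 25 other class I and class I-like heavy chains, 21 were measured. Of these, 10 rose (19.2% of all genes), 2 fell (18.2%) and 9 did not pass, with a median log2 fold change of 0.56 against 0.039 over all genes. The 10 that rose were non-classical Q and T chains and Cd1d1. Among them were H2-T9 and H2-T10, by their own features. A feature annotated to H2-T9 and H2-T10 together differed by -0.51 without overlap, and one annotated to H2-T9, H2-T22 and H2-T10 by 0.79. Neither of these shared features was tested. H2-Q1 was at 5.87, 5.94 and 6.29 with Ad-GFP and 8.32, 8.22 and 8.42 with Ad-nuclear CREBH, a rise of 2.29 (SE 0.16, adjusted p = 3.2e-05). Its neighbour H2-Q2 rose by 2.01 (adjusted p = 2.9e-05) from 5.59 to 5.74 with Ad-GFP, near the median level, and H2-Q6 by 0.87 (adjusted p = 1.9e-04). A brighter feature annotated to H2-Q6 and H2-Q7 together, at 11.55 on average with Ad-GFP, was higher by only 0.25, without overlap, and was not tested. H2-Q10, which encodes a class I molecule secreted by liver, rose by 0.70 (adjusted p = 0.011, and up to 0.0532 without Ad-nuclear CREBH replicate 2 or 3), and H2-T23, which encodes Qa-1, by 0.62. Cd1d1, which encodes the presenter of lipids to NKT cells, rose by 1.31 (adjusted p = 7.9e-04), with no overlap between dishes.

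The 2 that fell do not present peptides. Fcgrt, which encodes the heavy chain of the neonatal Fc receptor that recycles IgG and albumin, was at 9.81, 10.32 and 10.14 with Ad-GFP and 7.39, 7.84 and 7.89 with Ad-nuclear CREBH. It fell by 2.38 on the log2 scale (SE 0.18, adjusted p = 4.6e-05), 5.22-fold, with all its Ad-nuclear CREBH dishes far below the Ad-GFP dishes. Azgp1, a secreted zinc-binding glycoprotein with a class I fold, fell by 1.43 (adjusted p = 3.9e-04). Hfe, the class I-like regulator of iron, differed by 0.67 (adjusted p = 0.0867), and Mr1, which presents vitamin metabolites to MAIT cells, by -0.60 (adjusted p = 0.248). Both were called without Ad-GFP replicate 1, Hfe at 0.33 (adjusted p = 0.0323) and Mr1 at -0.96 (adjusted p = 0.0316), and also with array weights, where Hfe was at 0.42 and Mr1 at -0.67, and without both replicates numbered 1. Hfe was called as well with each array centred on its median.

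In the list of peptide loading and trimming, 16 of 18 genes were measured. Of these, 5 rose (19.2% of all genes), 4 fell (18.2%) and 7 did not pass, with a median of 0.13. The chaperones that hold the heavy chain in the endoplasmic reticulum fell, Calr (calreticulin) by 0.66 (adjusted p = 0.0032) and Canx (calnexin) by 0.78 (adjusted p = 1.1e-04), as did Uggt1, which tags misfolded glycoproteins for another round, by 0.69. Pdia3 (ERp57), the oxidoreductase bound to tapasin, rose by 0.33 (adjusted p = 0.0097), a call lost under cyclic loess, where it was 0.10, and without Ad-nuclear CREBH replicate 3. P4hb, a protein disulfide isomerase, rose by 0.89. Erap1, the aminopeptidase that trims peptides to fit the groove, differed by -0.30 (adjusted p = 0.336), with overlap, but was called lower without Ad-GFP replicate 1 (-0.55, adjusted p = 0.0083), with array weights and without both replicates numbered 1. Of the cytosolic peptidases, Thop1, which degrades peptides in the cytosol, rose by 1.95 (adjusted p = 5.1e-05), from 6.84, 6.62 and 6.92 to 8.97, 8.70 and 8.57. Lap3, leucine aminopeptidase, fell by 0.87 (adjusted p = 3.9e-04).

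Of 14 genes of the constitutive core, 13 were measured. Of these, 1 rose (19.2% of all genes), 4 fell (18.2%) and 8 did not pass, with a median of -0.18. Psma6 fell by 1.04, Psmb3 by 0.68 and Psma1 by 0.50, besides Psmb5, and Psma7 rose by 0.59, though not under quantile normalization (adjusted p = 0.0602). Larger differences were those of the regulators. Psme1, which encodes the alpha subunit of the interferon-induced cap PA28, was at 9.28, 9.96 and 9.68 with Ad-GFP and 7.07, 7.35 and 7.27 with Ad-nuclear CREBH. Psme2, which encodes its beta subunit, was at 8.93, 9.47 and 9.29 against 7.02, 6.78 and 6.60. For both, all Ad-nuclear CREBH dishes stood far below the Ad-GFP dishes, and they fell by 2.41 (SE 0.19, adjusted p = 4.4e-05) and 2.43 (SE 0.18, adjusted p = 4.0e-05), 5.31-fold and 5.39-fold. Psme3, which encodes the nuclear cap PA28 gamma, rose instead, by 0.78 (adjusted p = 4.3e-04), and Psme4, which encodes the cap PA200, by 0.30 (adjusted p = 0.026). The call of Psme4 was lost under quantile normalization, under cyclic loess and without replicate 2 or 3 of either group, with an adjusted p of up to 0.466. All told, 2 of the 10 activators and assembly factors rose (19.2% of all genes), 4 fell (18.2%) and 4 did not pass.

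**Figure D4:**
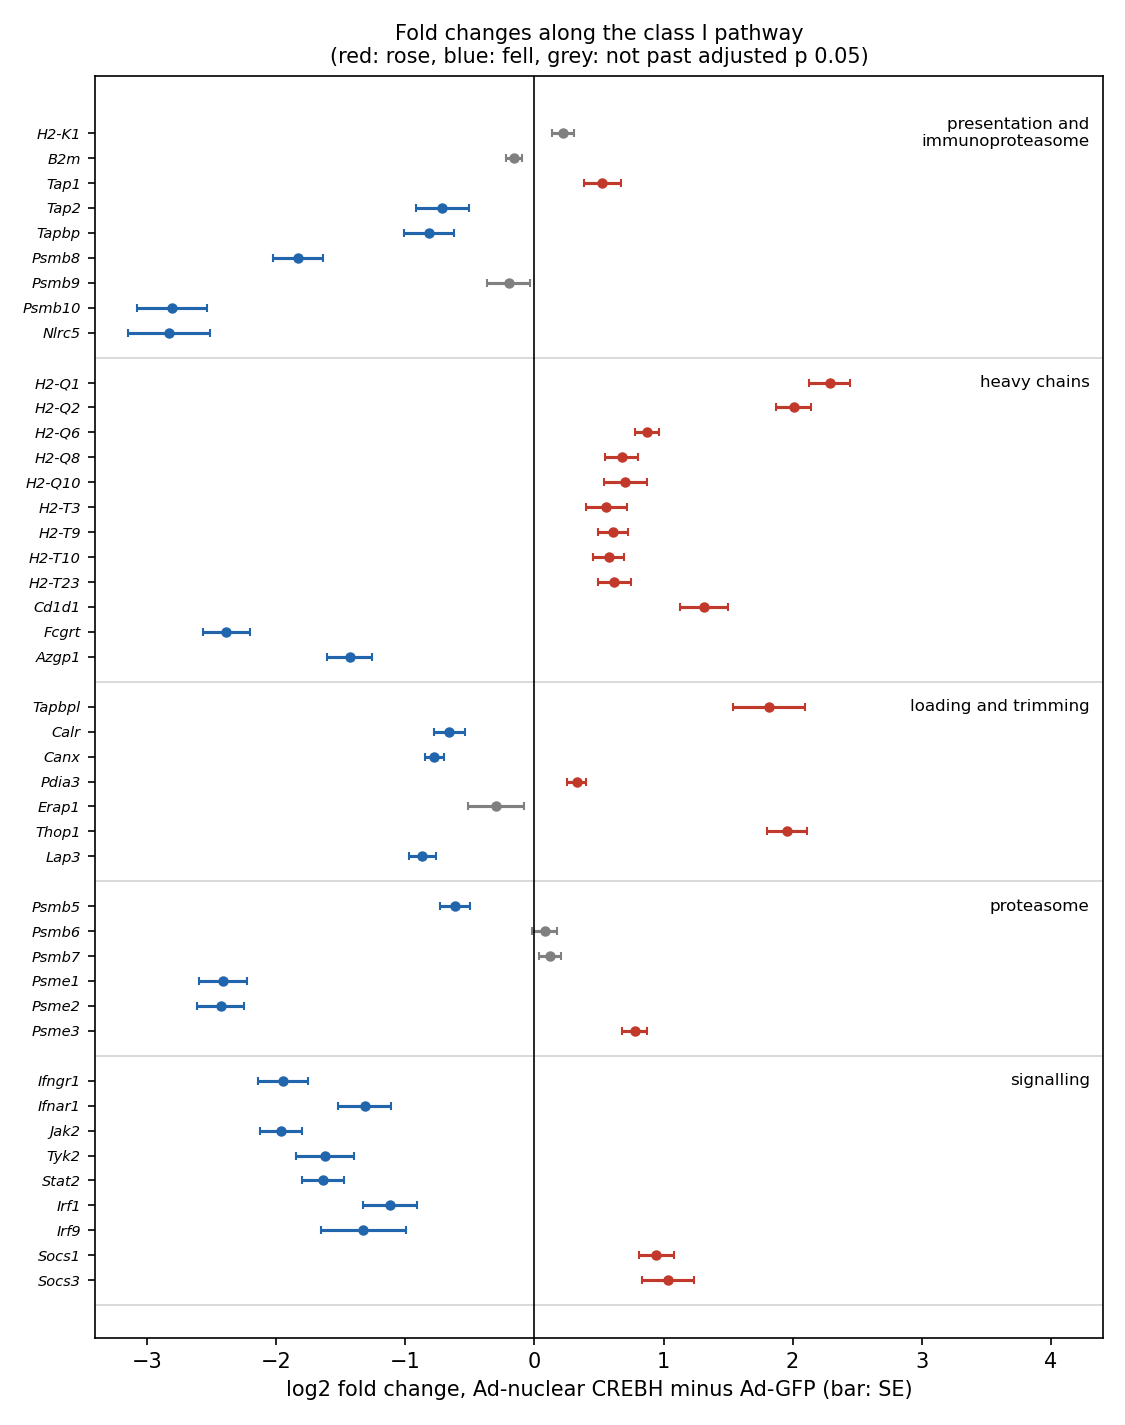
Log2 fold change (Ad-nuclear CREBH minus Ad-GFP, n = 3 per group) of the measured genes and of a selection of named genes of the heavy chain, loading, proteasome and signalling lists, with bars for the SE and colour for the call at an adjusted p under 0.05 over all genes. Among the genes plotted, falls of over 2 are those of Psmb10, Nlrc5, Fcgrt, Psme1 and Psme2, and rises of 2 or more those of H2-Q1 and H2-Q2.

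Transcription factors of class I genes were listed as 22 genes, of which 19 were measured. Of these, 3 rose (19.2% of all genes), 5 fell (18.2%) and 11 did not pass (median -0.14). Irf1, the interferon-induced factor that binds the response element of class I promoters, was at 7.31, 7.97 and 7.87 with Ad-GFP and 6.36, 6.71 and 6.72 with Ad-nuclear CREBH. It fell by 1.12 (SE 0.21, adjusted p = 0.0035), although a second, dimmer Irf1 feature, at 2.80 and 3.04 on average, showed no such difference. Stat2 and Irf9, factors of the type I interferon response that bind each other, fell by 1.64 (adjusted p = 1.3e-04) and 1.32 (adjusted p = 0.0141), the latter not without Ad-nuclear CREBH replicate 2, where its adjusted p was 0.0566. Relb, an NF-kB subunit, fell by 0.96 (adjusted p = 0.026), and was not called without Ad-GFP replicate 2 or 3 or Ad-nuclear CREBH replicate 1 or 3 (adjusted p up to 0.0906). Irf2, which binds the same element as Irf1, fell by 0.57 (adjusted p = 0.0271) and, without those same dishes, was not called either (adjusted p up to 0.104). Irf7, which drives transcription of type I interferons, rose by 0.76 (adjusted p = 0.0417), a call lost in 8 alternatives with an adjusted p of up to 0.13, among them those without Ad-GFP replicate 2 or 3 and without any 1 of the Ad-nuclear CREBH replicates. Irf8, a factor of myeloid cells, rose by 1.17 and Rfxap, a subunit of the RFX complex to which NLRC5 binds, by 1.13. Rfx5, another subunit of that complex, differed by -0.03 (adjusted p = 0.931), and Ciita, the class II transactivator, by 0.17 (adjusted p = 0.312).

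Of 15 genes of interferon receptors and JAK-STAT signalling, all measured, 8 fell (18.2% of all genes), 4 rose (19.2%) and 3 did not pass. Their median was -0.40. Ifngr1, the ligand-binding chain of the interferon gamma receptor, was at 10.19, 10.87 and 10.87 with Ad-GFP and 8.53, 8.77 and 8.80 with Ad-nuclear CREBH. It fell by 1.95 (SE 0.19, adjusted p = 1.4e-04), and Jak2, the kinase bound to that receptor, by 1.96 (SE 0.17, adjusted p = 6.5e-05), both without overlap. Tyk2 and Ifnar1, of the type I receptor, fell by 1.62 and 1.31. The 4 that rose were Il10rb, a receptor chain shared by interleukin 10 and interferon lambda, and the JAK-STAT inhibitors Socs1, Socs3 and Ptpn2. Socs1, Socs3 and Ptpn2 rose by 0.94, 1.04 and 0.60, but Socs3 and Ptpn2 were not called by their dimmer feature (adjusted p = 0.29 and 0.136). Other regulators of that signalling on the list were not called higher. Usp18 differed by -0.03 (adjusted p = 0.954) and Ptpn6 by 0.18 (adjusted p = 0.466), and Ptpn11 fell by 0.38 (adjusted p = 0.0392). Ifngr2 differed by -0.44 (adjusted p = 0.244), but was called lower with the replicate block and without both replicates numbered 1. Of 10 interferon genes, 6 were measured and none was called by limma, and 5 of them lay below the median level of all genes in their mean over the arrays.

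Of 10 listed genes of class II presentation, 8 were measured. Of these, 2 rose (19.2% of all genes), none fell (18.2%) and 6 did not pass, and 6 lay below the median level. Cd74, the invariant chain, was at 5.93, 6.31 and 6.41 with Ad-GFP and at 6.92, 9.82 and 10.11 with Ad-nuclear CREBH. Replicate 1 stood near the Ad-GFP dishes and the other 2 far above them. The rise of 2.73 (SE 0.74, adjusted p = 0.0199) rested on those 2, since it was not called without Ad-nuclear CREBH replicate 2 or replicate 3 (adjusted p up to 0.0768). H2-Ob, a subunit of the class II peptide-loading modulator DO, rose by 0.52 below the median level.

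Other liver cells also express class I and immunoproteasome genes, and their markers were read in the same dishes. Over all genes, 19.2% rose and 18.2% fell. Of 15 macrophage markers, 1 rose and 3 fell, 10 lay below the median level of all genes, and the summed level was 11.46 to 11.92 with Ad-GFP and 10.40 to 11.43 with Ad-nuclear CREBH. Cd68, which makes up most of that sum, was at 11.70, 11.52 and 11.24 against 11.16, 9.99 and 9.90, lower by 1.13 (adjusted p = 0.0215, and up to 0.0814 without Ad-GFP replicate 1 or 2 or Ad-nuclear CREBH replicate 2 or 3). The Kupffer cell markers Clec4f and Timd4 and the leukocyte marker Ptprc, singled out after their values were seen, were between 2.79 and 4.43 in every dish. Brighter were Lyz2, Marco, C1qb and Fcer1g, between 5.20 and 6.67 in every dish. Besides Cd68, Lyz2 fell by 0.57 and Cd5l by 0.64, while Csf1r rose by 0.61. These calls were lost in 9, 6 and 4 alternatives. Of 12 endothelial markers 1 rose, of 10 stellate and fibroblast markers 1 fell, of 6 measured cholangiocyte markers 1 rose and 1 fell, and of 8 dendritic cell markers 1 rose. Their summed levels were 8.63 to 9.05, 7.73 to 7.91, 7.98 to 9.19 and 6.57 to 6.78 with Ad-GFP and 9.13 to 9.31, 7.37 to 8.58, 8.71 to 9.28 and 7.09 to 7.15 with Ad-nuclear CREBH. All 12 measured lymphocyte and NK cell markers and all 8 dendritic cell markers lay below the median level, and no lymphocyte or NK cell marker was called. Of 10 hepatocyte markers, 2 rose and 3 fell. Fgb, a fibrinogen chain, fell by 2.29 (4.90-fold), Tat, an enzyme of tyrosine breakdown, by 2.17 (4.49-fold) and Cps1, of the urea cycle, by 1.21, while Hpd, also of tyrosine breakdown, rose by 3.78 (13.7-fold) and Apoa1 by 0.74. Some of these changes were as large as those of Psmb8, Psmb10 and Nlrc5, whereas the summed level of the list, which its brightest genes dominate, was 15.05 to 15.20 against 15.17 to 15.23. The part of these differences in those of the class I and immunoproteasome genes was not tested.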

How the data were processed

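The 6 arrays, 3 per group, were grouped by their labels. The values the authors deposited are log2 intensities summarised per feature by RMA after background correction and between-array normalization. The submitters' processing notes give RMA no version, and the definition of the array's features was not found in the labels, the methods or the table. For RNA preparation, the methods and the labels name different kits. Values were used as deposited. Gene symbols came from the platform annotation, which gave 1 symbol to 21218 features, the only ones used, more than 1 to 1881 and none to 12457. For 1386 genes with several features, that with the highest mean was kept, leaving 18820 genes. RMA has no flag for background, and folds of dim genes can be understated.

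The fit was made with limma 3.58.1 under R 4.3.3 (lmFit, then eBayes with an intensity trend), with 4 residual degrees of freedom and a prior of 3.97, and tested on simulated data first. Figures were drawn with matplotlib 3.10.9. The genes, lists, tests and alternatives were chosen with earlier results of these data known. Named are the 10 genes, their partners and neighbours in the pathway, and, per list, the largest changes that passed and the brightest that did not, along with others singled out after their values were seen. Alternatives covered the variance prior, the study's intensity-based moderated statistic, array weights, the replicate block, normalization, the choice of feature, dim genes and each array left out. Leaving out both arrays numbered 1 was added after seeing the data. Sequences and positions are from RefSeq on GRCm38.p6.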

Additional observations from a re-analysis of the deposited data

How the results depend on the processing

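No measured gene of the set changed direction under any alternative. The fall of Tapbp, Psmb8, Psmb10 and Nlrc5 was called in every one, and Nlrc5 was smallest, at -1.39, with its dimmest feature. The count called lower was 5, and leaving out each array in turn gave 4 to 5. It was 7, B2m and Psmb9 being added, with array weights and without both arrays numbered 1, and 6, B2m being added, with cyclic loess. The count called higher was 1, and it was 2, H2-K1 being added, with array weights, with each array centred on its median, among genes above the median level, with the replicate block and without both arrays numbered 1, and 0 under quantile normalization. It ranged from 0 to 2 over the arrays left out in turn. By the study's criteria 3 genes passed, and 0 where both group means had to exceed 300, by that setting's construction, since the level in Ad-nuclear CREBH dishes is below it. Psmb9 minus Psmb6 changed sign under cyclic loess, at 0.0015, and Irf1 with the feature of lowest mean, at 0.23, and the cause was not tested. Dishes of the same replicate number deviated together with r of 0.178, 0.0729 and 0.139. Numbers 1 and 3 matched best with their own number, and number 2 with number 3. Whether the numbers pair the dishes cannot be told from so few values, and the main fit did not use them. The replicate block called Hfe and Mr1 as well, and it raised the genes of the set called lower to 6, B2m being added, and the genes lower and higher over all genes from 3427 and 3615 to 3705 and 3715. Centring each array on its median moved that split to 2852 lower and 4814 higher and the all-gene median difference from 0.039 to 0.18 on the log2 scale. The median of the 9 genes under that setting was -0.57, to be read against the shifted 0.18. Few arrays and the lack of a background flag limit small differences and dim genes.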
